A study of Mus musculus with 12 samples.

Results

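Tumour necrosis factor, both lymphotoxins and their 3 receptors were followed at the RNA level in the mouse spleen. The 6 genes were Tnf, Lta, Ltb, Tnfrsf1a, Tnfrsf1b and Ltbr, taken as every probe set that the platform's annotation assigns to one of these symbols. They were read by 7 of the 22626 probe sets tested, Tnfrsf1b by 2 and the others by 1 each, and are 6 of the 12393 genes represented on the array. No probe set that names several genes held one of them.

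The 12 arrays, Affymetrix MOE430A 2.0, each carried spleen RNA of 1 mouse. Of the 4 groups of 3 mice, the first was labelled Dusp1 wild-type and left as control, the second was labelled wild-type and killed 6 h after intraperitoneal E. coli LPS (10 µg for each g the mouse weighed), the third was labelled Dusp1 knockout control, and the fourth was labelled knockout and given the same dose for the same time. Dusp1 encodes a phosphatase that inactivates MAP kinases, and the design asks how its loss alters the response to LPS, the endotoxin of Gram-negative bacteria. Neither the allele, the strain, the age nor any injection given to the controls is stated in the labels.

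Tnf is made mostly by macrophages and other myeloid cells after LPS and signals through Tnfrsf1a, a receptor with a death domain found on most cells, and through Tnfrsf1b, which is found mainly on immune and endothelial cells. Lta is secreted as a trimer that binds the same receptors, and on the surface of lymphocytes it joins Ltb to form the ligand of Ltbr, a receptor of stromal and myeloid cells. In the spleen the lymphotoxin pathway, through Ltbr and the alternative branch of NF-kB, keeps up B cell follicles and the chemokines of the white pulp.

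Some arrays stood apart from their group. The exocrine pancreas list averaged 12.69 on the log2 scale in wild-type control 1; knockout controls 1 and 3 stood at 11.35 and 8.40, and no other array exceeded 5.32. Y-linked Eif2s3y read up to 316 and Xist as little as 35 in wild-type controls 2 and 3, while in the other groups Eif2s3y read at most 10 and Xist at least 1101. By these genes wild-type controls 2 and 3 looked male and all other arrays female. Sex is thus mixed into every comparison that uses the wild-type controls. Fits without those 2 arrays, which leave wild-type control 1 alone in its group, are given below for some comparisons. Lung markers were high in 2 knockout controls and 2 knockout LPS arrays (6.10 to 6.81, against at most 5.33 elsewhere). The liver list ran from 4.655 to 9.47 in knockout controls and from 4.47 to 7.46 in wild-type controls. Its gene Alb read 29, 5986 and 825 in knockout controls 1, 2 and 3. The erythroid list ran from 5.51 to 10.14 in knockout controls and from 6.93 to 9.12 in wild-type controls. The Dusp1 signal was not lower under the knockout label: among LPS arrays it ran from 2948 to 4996 there and from 2116 to 2248 in wild-type mice, and among controls from 677 to 1528 against 479 to 1354. Where its probes lie relative to the deletion is not stated, so the genotype labels could not be checked, and "knockout" below means the label. The B cell marker Cd79b read 2610 to 3828 in wild-type controls and 1380 to 4196 in knockout controls. After LPS it read 1112 to 1927 and 469 to 805, so its full range over the 12 arrays includes the LPS difference.

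After LPS, Tnf rose in wild-type spleens and Tnfrsf1b rose in knockout spleens. When both genotypes were averaged, Tnf and Tnfrsf1b rose and Ltb fell. The second probe set of Tnfrsf1b was called in wild-type spleens too, and neither set was called for the interaction of genotype and LPS. The difference of Tnf in knockout spleens and between the genotypes after LPS did not pass the threshold. Lta, Tnfrsf1a and Ltbr did not pass it in any comparison as fitted here, and each passed it in the averaged LPS response under some alternatives given below. Calls are limma moderated tests with Benjamini-Hochberg adjustment over all 22626 probe sets and a threshold of 0.05. In the wild-type LPS response 1 of the 6 genes was called, against a background of 8.09% of all genes. In the knockout LPS response 1 of 6 was called (background 15.2%), and in the averaged LPS response 3 of 6 (background 22.9%). Values below are deposited intensities of replicates 1, 2 and 3, and ± after a log2 difference is its standard error.

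**Figure D1:**
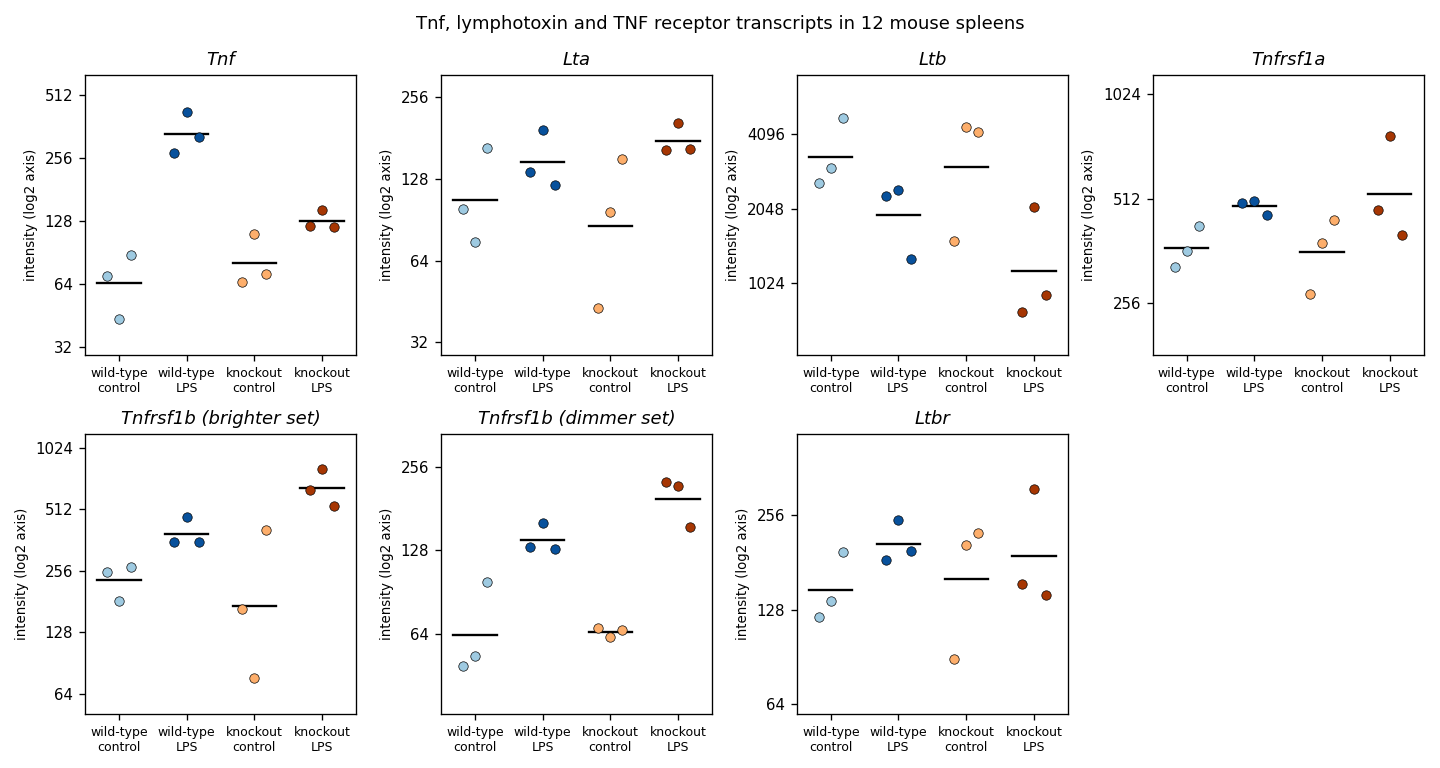
Deposited intensity of each probe set of the 6 genes (log2 axis, own range per panel) in wild-type control, wild-type LPS, knockout control and knockout LPS spleens; points are the 3 mice of a group and bars are geometric means. Tnf stands at 272 to 427 in wild-type LPS arrays and at 145 or below in all others, while Ltb is the one panel whose LPS bars lie below the control bars.

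The genes of the ligands lie side by side on chromosome 17 in the order Ltb, Tnf, Lta. Their promoters, and that of Tnfrsf1b, the receptor gene that was called, are shown so that the sequence next to each start site can be set beside the values of each gene. Each run is the 250 bases before the RefSeq start site on GRCm38.p6, written 5′ to 3′ on the strand of the gene. Tnf is at chr17:35202008-35202257 and Lta at chr17:35205352-35205601 (both minus strand), Ltb at chr17:35194257-35194506 (plus strand) and Tnfrsf1b at chr4:145246871-145247120 (minus strand). Capitals mark matches on either strand to GGGNNNNNCC, a loose form of the kappaB motif, and to TATAAA. The AP-1 motif TGANTCA was also searched.
Tnf: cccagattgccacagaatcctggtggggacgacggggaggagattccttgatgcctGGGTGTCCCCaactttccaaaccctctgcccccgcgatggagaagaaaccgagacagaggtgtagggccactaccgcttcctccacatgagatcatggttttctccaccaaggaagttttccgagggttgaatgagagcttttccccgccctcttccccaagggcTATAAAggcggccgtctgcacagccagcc
Lta: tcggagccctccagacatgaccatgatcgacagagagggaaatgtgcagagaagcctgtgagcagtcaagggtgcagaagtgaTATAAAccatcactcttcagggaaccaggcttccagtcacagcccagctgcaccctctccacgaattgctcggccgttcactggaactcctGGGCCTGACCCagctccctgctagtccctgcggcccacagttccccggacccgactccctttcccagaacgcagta
Ltb: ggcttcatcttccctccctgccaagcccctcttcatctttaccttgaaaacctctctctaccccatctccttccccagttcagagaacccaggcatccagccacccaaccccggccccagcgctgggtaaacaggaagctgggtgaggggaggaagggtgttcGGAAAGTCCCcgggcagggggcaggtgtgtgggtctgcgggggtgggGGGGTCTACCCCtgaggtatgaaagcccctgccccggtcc
Tnfrsf1b: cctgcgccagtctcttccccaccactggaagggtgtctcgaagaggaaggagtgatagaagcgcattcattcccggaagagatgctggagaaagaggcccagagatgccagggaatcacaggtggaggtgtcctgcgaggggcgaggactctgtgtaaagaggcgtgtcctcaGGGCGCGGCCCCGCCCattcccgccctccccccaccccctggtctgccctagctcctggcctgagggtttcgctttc
Tnf held 1 kappaB match, starting at -194 from the start site, and a TATAAA at -29. Lta held 2 kappaB matches that overlap (-76 and -75) and a TATAAA at -167. Ltb held 4 kappaB matches, GGAAAGTCCC at -87 and 3 that overlap from -40 to -38, and no TATAAA. The 3 kappaB matches of Tnfrsf1b overlap (-77 to -71) in a run of G and C. Tnfrsf1a and Ltbr, not printed, held 1 kappaB match each, and none of the 6 promoters held TGANTCA. All 6 genes matched in the promoter table. Such letters are common: in 32851 promoters of this length the kappaB form occurred in 45.8%, TATAAA in 12.4% and TGANTCA in 6.75%. A match here is a description of the sequence, not a site of binding.

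Tnf RNA was low in all control spleens and high after LPS in the wild-type mice. Wild-type controls read 70, 44 and 88, and wild-type LPS arrays 272, 427 and 322. Knockout controls read 66, 111 and 72, and knockout LPS arrays 121, 145 and 120. In both genotypes every LPS array lay above every control array, but the knockout LPS arrays all lay below the lowest wild-type LPS array. The geometric means were 64.7, 334, 80.8 and 128 for wild-type control, wild-type LPS, knockout control and knockout LPS, with SDs of 0.51, 0.33, 0.40 and 0.15 on the log2 scale (n = 3 each). The order of the groups was thus wild-type LPS, knockout LPS, knockout control, wild-type control, and the last 2 overlapped.

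In wild-type spleens Tnf rose 5.17-fold (log2 2.37 ± 0.29, 95% confidence interval 1.73 to 3.01, limma adjusted p = 0.00112). In knockout spleens the difference was 1.59-fold (log2 0.67 ± 0.29, interval 0.03 to 1.30), with an adjusted p of 0.178 and an unadjusted p of 0.0419. It was 0.21 (adjusted p = 0.786) without the 3 pancreas-high arrays, which leaves knockout control 2, the highest control, as the only knockout control. Averaged over genotypes the LPS response of Tnf was 1.52 ± 0.20 (adjusted p = 0.000534). The wild-type call stood in each of 29 alternative analyses.

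The direct comparison of the LPS groups put Tnf 2.61-fold lower in knockout than in wild-type spleens (log2 -1.38 ± 0.29, interval -2.02 to -0.75, no overlap). This did not pass the threshold over the whole array (unadjusted p = 0.000594, adjusted p = 0.0885), although Tnf ranked 151 of 22626 by p. Of all genes 0.363% were called in that comparison and none of the 6 was; at an unadjusted p under 0.05 there was 1, Tnf, against 10.2% of all genes. The difference between the LPS responses, the interaction, was -1.70 ± 0.41 for Tnf (unadjusted p = 0.00162, adjusted p = 0.408), where 0% of all genes were called. In controls knockout minus wild-type was 0.32 ± 0.29 (adjusted p = 1). The value after LPS stayed negative in all 29 alternatives (-1.54 to -1.21, adjusted p 0.00157 to 0.40) and was called in 1 of them, with array weights. Markers of monocytes and macrophages (14 of 16 measured) had array means of 9.33 to 9.49 in wild-type LPS and 9.77 to 10.12 in knockout LPS spleens, and their part in the Tnf difference was not tested.

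Lta, the secreted lymphotoxin, varied widely in controls. Wild-type controls read 99, 75 and 166 and wild-type LPS arrays 136, 193 and 121, 2 groups that overlap. Knockout controls read 43, 97 and 151 and knockout LPS arrays 163, 206 and 165, with every LPS array above the controls. LPS minus control came to 0.46 ± 0.43 for wild-type mice (adjusted p = 0.677) and to 1.05 ± 0.43 for knockout mice (adjusted p = 0.149, interval 0.11 to 1.99). Knockout minus wild-type was -0.32 ± 0.43 in controls and 0.27 ± 0.43 after LPS (adjusted p = 1 and 0.97). Averaged over genotypes the LPS difference of Lta was 0.75 ± 0.30 (adjusted p = 0.113), and it was called with every array shifted to 1 median (0.92, adjusted p = 0.0491), with cyclic loess (0.91, adjusted p = 0.0421) and without knockout control 3 (0.95, adjusted p = 0.0381). With the average of the B cell and T cell marker list means as 1 covariate (the lymphocyte lists below) it was 1.76 averaged (adjusted p = 0.00812) and 1.98 in knockout spleens (adjusted p = 0.00878). Both lists were themselves lower after LPS in wild-type spleens, so such a fit does not separate them from LPS.

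Ltb, the membrane-bound lymphotoxin, was lower after LPS. Wild-type controls read 2587, 2987 and 4732, and wild-type LPS arrays 2311, 2443 and 1286. Knockout controls read 1510, 4384 and 4156, and knockout LPS arrays 786, 2086 and 916. The wild-type groups did not overlap, while knockout control 1 lay below the highest knockout LPS array. LPS minus control came to -0.78 ± 0.49 for wild-type mice (adjusted p = 0.466) and to -1.40 ± 0.49 for knockout mice (adjusted p = 0.0925), and averaged over both Ltb fell by 1.09 on the log2 scale (± 0.34, 2.13-fold, adjusted p = 0.0481). Between genotypes Ltb differed by -0.14 ± 0.49 in controls and -0.76 ± 0.49 after LPS (adjusted p = 1 and 0.784).

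Markers of lymphocytes, the cells that make Ltb, were read beside it. In bulk spleen RNA, fewer cells of a type and less RNA per cell cannot be told apart. The B cell list (11 of 14 measured) had array means of 9.68 to 10.11 in wild-type controls, 8.73 to 9.32 after LPS, 8.90 to 10.04 in knockout controls and 8.68 to 8.91 after LPS. The T cell list (12 of 14 measured) stood at 7.94 to 8.40, 6.65 to 7.41, 6.98 to 8.55 and 6.90 to 7.31 in the same order. Averaged over genotypes 4 of 11 B cell and 7 of 12 T cell genes fell and none rose (background 22.9% of all genes called). Among those that fell were Cd79b of the B cell receptor (-1.64 ± 0.28), the B cell surface receptor Fcer2a (-1.92 ± 0.33), and the T cell genes Cd3g (-2.16 ± 0.31) and Cd5 (-2.35 ± 0.36). Others were not called: averaged, Cd22 differed by -0.15 ± 0.19, Blnk by 0.10 ± 0.18 and Cd247 by -0.23 ± 0.33. In knockout spleens Blnk, Ebf1 and Cd2 differed by 0.55, 0.47 and 0.16. With the average of both list means as 1 covariate the averaged Ltb difference was 0.14 (adjusted p = 0.913), and in wild-type and knockout spleens it was 0.54 and -0.26. Because the lists moved with LPS, this fit cannot separate the 2, and the part of lymphocytes in the Ltb difference was not tested. The averaged Ltb call also ended on leaving out any single array except knockout LPS 2 and the first knockout control (adjusted p then up to 0.12). It ended as well with every array shifted to 1 median (adjusted p = 0.0658), with log2(value + 16) (0.0623), with values under 32 set to 32 (0.105), with the lung list in the model (0.0595) and without wild-type controls 2 and 3 (0.233), all with a negative difference. Within knockout mice Ltb was called, conversely, without knockout control 1 (-1.90, adjusted p = 0.0191) or without knockout LPS 2 (-1.83, adjusted p = 0.0383).

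**Figure D2:**
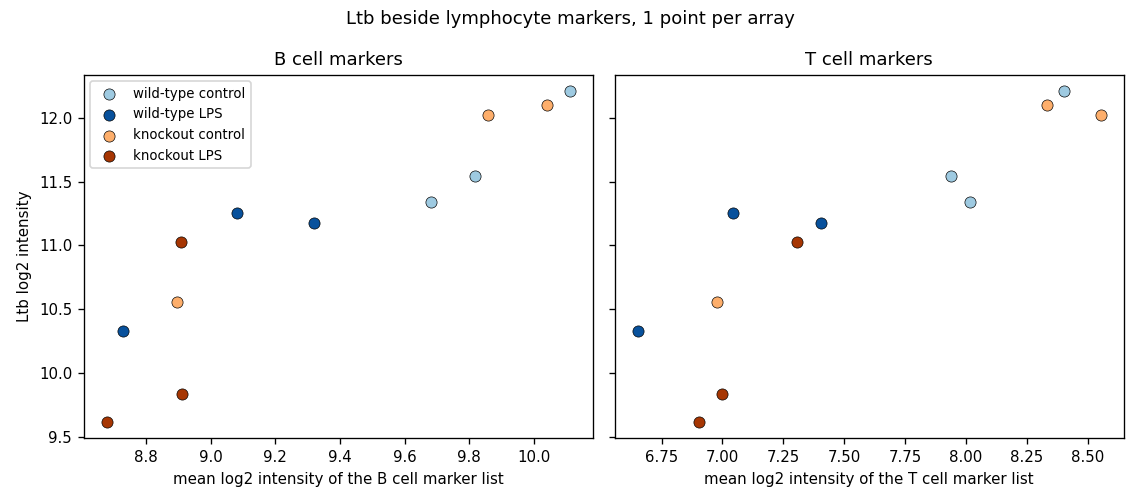
Ltb log2 intensity (vertical) against the mean log2 intensity of the B cell list (left) and the T cell list (right), 1 point per array, coloured by group. Wild-type controls (B cell means 9.68 to 10.11) read 2587 to 4732 for Ltb. Knockout LPS arrays all have B cell means of 8.68 to 8.91 but read from 786 to 2086, and knockout control 1 (B cell mean 8.90, Ltb 1510) sits among the LPS arrays.

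Of the receptors, Tnfrsf1a, which carries the death domain, passed no test as fitted. Wild-type controls read 325, 363 and 428, and wild-type LPS arrays 498, 504 and 459. Knockout controls read 272, 382 and 445, and knockout LPS arrays 475, 776 and 403. The wild-type groups did not overlap, the knockout groups did, and knockout LPS 2 was the highest array. The LPS difference was 0.40 ± 0.26 in wild-type and 0.56 ± 0.26 in knockout spleens (adjusted p = 0.488 and 0.206), and 0.48 ± 0.18 averaged (adjusted p = 0.0948, interval 0.08 to 0.88). The averaged difference of Tnfrsf1a was called with every array shifted to 1 median (0.65, adjusted p = 0.0264), with cyclic loess (0.53, adjusted p = 0.0335) and with the lymphocyte lists in the model (0.94, adjusted p = 0.0437). Knockout minus wild-type was -0.04 ± 0.26 in controls and 0.12 ± 0.26 after LPS (interval -0.45 to 0.69).

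Tnfrsf1b, the inducible TNF receptor, was the receptor that rose. Its brighter probe set, which stands for the gene here, gave wild-type controls of 254, 183 and 266 and wild-type LPS arrays of 353, 469 and 355. It gave knockout controls of 166, 76 and 404 and knockout LPS arrays of 640, 804 and 534. LPS and control arrays did not overlap in either genotype, and all knockout LPS arrays lay above the wild-type LPS arrays. The LPS response was 3.78-fold in knockout (log2 1.92 ± 0.47, adjusted p = 0.0236) and 1.68-fold in wild-type spleens (0.75 ± 0.47, adjusted p = 0.469), and 1.33 ± 0.33 averaged (adjusted p = 0.0173). The knockout controls set most of its error, with an SD of 1.21 on the log2 scale against 0.23 to 0.30 in the other groups.

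The second probe set of Tnfrsf1b was dimmer and tighter. Wild-type mice gave 49, 53 and 98 as controls and 132, 161 and 129 with LPS, and knockout mice 67, 62 and 66 as controls and 226, 219 and 155 with LPS. By this set the gene rose in both genotypes, by 1.14 ± 0.26 for wild-type mice (adjusted p = 0.0254) and by 1.60 ± 0.26 for knockout mice (adjusted p = 0.00294). The sets thus gave the same direction and differed in whether the wild-type rise was called. They also differed in the genotype comparison after LPS: 0.74 ± 0.47 without overlap by the brighter set (adjusted p = 0.781) and 0.49 ± 0.26 with overlap by the other (adjusted p = 0.671). The interaction was 1.17 ± 0.67 and 0.46 ± 0.37 (adjusted p = 1 for both), so a larger response in knockout spleens was not shown.

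The knockout call of Tnfrsf1b by the brighter set was thin. It ended without knockout LPS 1, 2 or 3 (adjusted p = 0.0755, 0.0699 and 0.0508). The response was 3.10 without the 3 pancreas-high arrays, when knockout control 2, the lowest array at 76, was the only knockout control, and 1.33 without that array (adjusted p = 0.0436). With the lymphocyte lists in the model it was 2.04 (adjusted p = 0.0862). The response averaged over genotypes was not called with those lists either (1.47, limma adjusted p = 0.159). Without wild-type controls 2 and 3, which leaves wild-type control 1 alone in its group, the averaged response was 1.27.

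Ltbr, the lymphotoxin receptor, passed no test as fitted. Wild-type controls read 121, 136 and 196, and wild-type LPS arrays 184, 248 and 197. Knockout controls read 89, 205 and 224, and knockout LPS arrays 155, 311 and 142. The groups overlapped in both genotypes. The LPS difference was 0.49 ± 0.39 in wild-type and 0.25 ± 0.39 in knockout spleens (adjusted p = 0.598 and 0.772), and knockout minus wild-type after LPS was -0.13 ± 0.39 (interval -0.99 to 0.73). Averaged over genotypes the LPS difference of Ltbr was 0.37 ± 0.28 (adjusted p = 0.416), and 1.21 with the lymphocyte lists in the model (adjusted p = 0.0449).

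**Figure D3:**
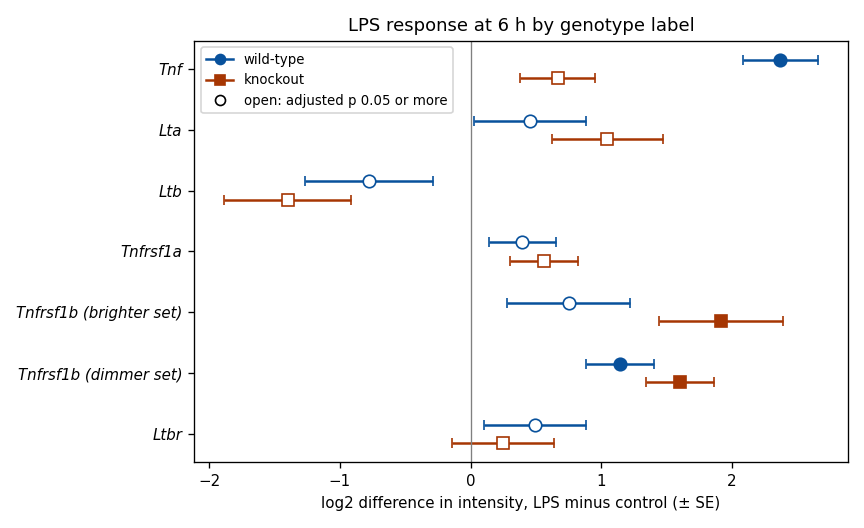
LPS response of each probe set, as the log2 difference between LPS and control with its standard error, in wild-type (circles) and knockout (squares) spleens; filled symbols passed the limma threshold. Tnf is the one gene with its wild-type value (2.37) far above its knockout value (0.67), and Ltb the one with both values below 0.

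Set side by side, the 6 genes gave a median LPS difference of 0.47 in wild-type and 0.61 in knockout spleens, where the medians over all genes were -0.03 and -0.06. The groups did not overlap for 4 of 6 genes in the wild-type response (background 25%) and for 3 of 6 in the knockout response (background 28.9%). Between genotypes they did not overlap for 0 of 6 in controls (background 2.49%) and for 2 of 6, Tnf and Tnfrsf1b, after LPS (background 18.3%), with Tnf lower and Tnfrsf1b higher under the knockout label. In controls and averaged over treatments 0% of all genes were called between genotypes and none of the 6 was (0 and 1 at an unadjusted p under 0.05, the latter Tnf, against 1.42% and 5.74% of all genes). The LPS comparisons of a genotype share its arrays with the genotype comparisons, so these counts are not independent of each other.

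Over the 12 arrays, which share the 4 groups, Tnfrsf1a and Ltbr varied most alike of the 6 genes (Pearson r = 0.88), then Lta and Tnfrsf1a (0.82) and Lta and Ltbr (0.78); Ltb and Tnfrsf1b ran opposite (-0.51). Among 8098 genes above the 40th percentile of intensity, the nearest to Tnf were Ptges, which makes prostaglandin E (r = 0.94), complement factor Cfb (0.94), Aldh1a2, a retinoic acid synthase (0.93), Tapbpl (0.91) and the amino acid carrier Slc1a4 (0.91). The nearest to Ltb were Was (0.97), Cnn2, Tmem176b, Ppp1r18 and Coro1a (0.97), of which Was and Coro1a serve the actin cytoskeleton of blood cells. Those of Tnfrsf1b were Coro2a (0.96), Chmp4b, the NF-kB subunit Rela (0.95), the protease Furin (0.95) and Arf6. Lta went with Polm and Slc41a1 (0.96 each), Tnfrsf1a with Pdgfa (0.95) and Ltbr with Dtx2 (0.95). These are descriptions over 12 arrays, in which any gene that separates the same groups scores high.

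The wider family was examined through lists of genes that work with these 6. Other ligands of the TNF superfamily (11 measured of 15) were mostly dim: 2 rose in wild-type and 3 in knockout spleens, and none fell. The shares of all genes called, in either direction, were 8.09% and 15.2%. Tnfsf10, the death ligand TRAIL, rose by 0.90 ± 0.19 and 1.29 ± 0.19, and Cd70, a T cell costimulator, by 1.29 ± 0.32 and 1.70 ± 0.32, but their highest intensities on any array were 38 and 66. With values under 32 set to 32 neither showed a wild-type difference. Tnfsf9, the ligand of Tnfrsf9, rose in knockout spleens (1.96 ± 0.55) and differed by 1.21 ± 0.55 in wild-type spleens (adjusted p = 0.264).

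Among the other receptors of the superfamily (22 of 25) 5 rose in wild-type spleens (background 8.09%), and in knockout spleens 5 rose and 2 fell (background 15.2%). Tnfrsf9, an activation marker of lymphocytes, rose by 3.00 ± 0.41 and 2.94 ± 0.41 in wild-type and knockout spleens. Cd40, which receives help for B cells and dendritic cells, rose by 2.69 ± 0.41 and 2.55 ± 0.41, Tnfrsf4 by 1.67 ± 0.26 and 1.95 ± 0.26, and Tnfrsf12a, the receptor of TWEAK, by 1.42 ± 0.36 and 1.94 ± 0.36. Both that fell in knockout spleens are lymphoid receptors: Cd27 of T and B cells (-2.09 ± 0.54) and Tnfrsf17 of plasma cells (-1.25 ± 0.30). Cd27 differed by -1.55 ± 0.54 in wild-type spleens (adjusted p = 0.13).

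**Figure D4:**
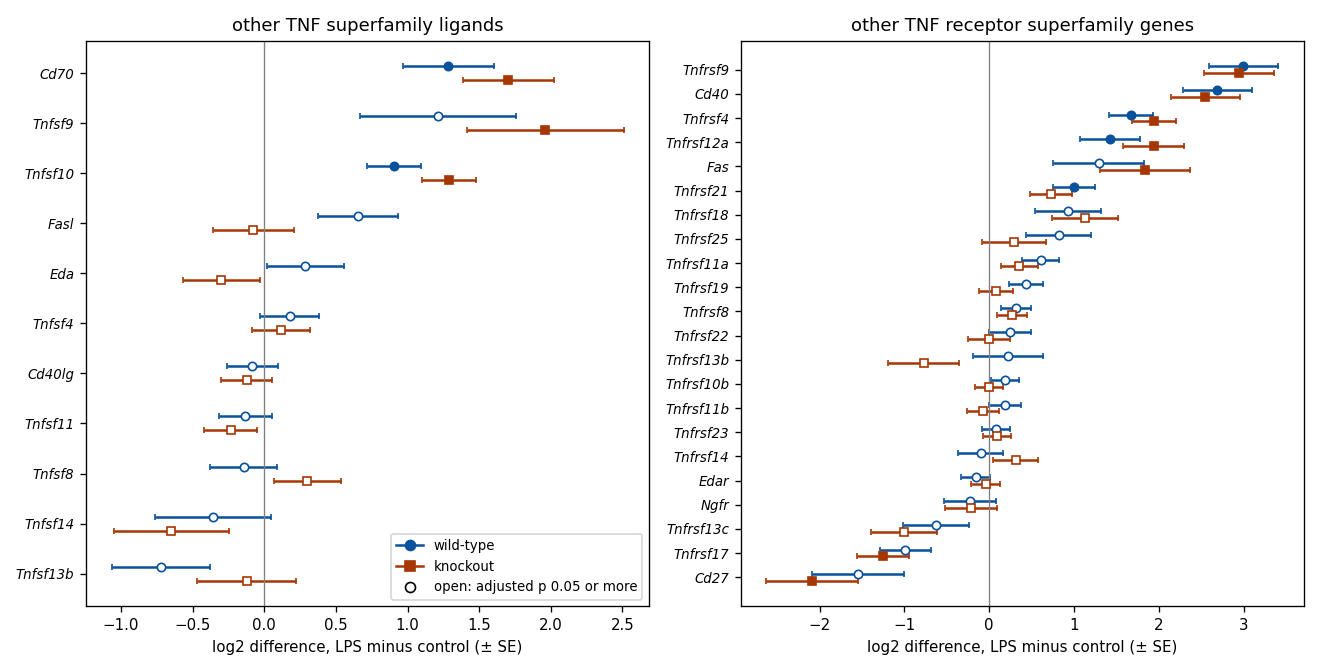
LPS response (log2 difference ± SE) of 11 other TNF superfamily ligands (left) and 22 other receptors (right) in wild-type (circles) and knockout (squares) spleens; filled symbols passed the limma threshold. Tnfrsf9 and Cd40 rise most, and Cd27 stands lowest in both genotypes.

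Downstream of the TNF receptors, signalling genes (25 of 33) rose in 3 cases in wild-type and 7 in knockout spleens, and none fell. For the counts in this paragraph the backgrounds were 8.09% of all genes in wild-type and 15.2% in knockout spleens. The inhibitors Tnfaip3 (A20), an enzyme that edits ubiquitin, and its partner Tnip1 led both: 2.56 ± 0.44 and 3.26 ± 0.44, and 1.34 ± 0.23 and 1.52 ± 0.23. The adaptor Traf1 rose by 1.78 ± 0.47 and 1.70 ± 0.47, and the caspase inhibitor Cflar by 1.89 ± 0.36 in knockout spleens. Of the list of TNF-induced genes (20 of 22), which LPS also induces without TNF, 11 rose and 1 fell in wild-type spleens and 14 rose in knockout spleens. Ccl2, a monocyte chemokine, rose by 4.69 ± 0.41 and 5.67 ± 0.41, and Sod2, a mitochondrial antioxidant enzyme, by 2.48 ± 0.13 and 2.03 ± 0.13; the gene that fell was the adhesion molecule Vcam1 (-1.76 ± 0.25). The array means of this list were 9.29 to 9.42 in wild-type and 9.79 to 9.89 in knockout LPS spleens, and 7.14 to 7.62 and 6.96 to 7.95 in the controls.

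For the lymphotoxin arm, the list of alternative NF-kB genes and lymphotoxin targets had 13 of 16 measured. In wild-type spleens 1 rose and 2 fell (background 8.09%), and in knockout spleens 1 rose and 3 fell (background 15.2%). The gene that rose was Icam1, an adhesion molecule that many inflammatory signals induce (2.04 ± 0.27 and 1.89 ± 0.27). Cxcl12, a stromal chemokine, fell by 1.35 and 0.98 (± 0.23 each), and Vcam1 fell in wild-type spleens. The B cell genes Fcer2a (-2.60 ± 0.47) and Cr2 (-1.95 ± 0.52) fell in knockout spleens. Fcer2a and Cr2, which are also on the B cell list, differed by -1.25 and -1.195 in wild-type spleens (limma adjusted p = 0.163 and 0.245). Averaged over genotypes, the alternative NF-kB genes Nfkb2 (0.92 ± 0.28) and Relb (1.19 ± 0.36) rose.

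Of genes for release of TNF from the membrane and its receptors (7 of 8), none passed in wild-type spleens (background 8.09%; 2 at an unadjusted p under 0.05, against 21.4% of all genes). In knockout spleens 2 rose (background 15.2%), Furin (1.75 ± 0.26), which matures proteases, and Timp3 (1.76 ± 0.33), which inhibits the sheddase. In wild-type spleens Furin and Timp3 differed by 0.76 ± 0.26 and 0.85 ± 0.33 (limma adjusted p = 0.128 and 0.175). The sheddase Adam17 itself differed by -0.11 ± 0.39 and -0.45 ± 0.39 (adjusted p = 0.936 and 0.549). Among genes that govern Tnf mRNA decay and translation (12 of 15), the kinase gene Mapk14, a target of Dusp1 at the protein level, fell by 1.83 and 2.52 (± 0.22 each). Mapkapk2, its downstream kinase, rose by 1.35 ± 0.28 in knockout spleens and differed by 0.87 ± 0.28 in wild-type spleens (limma adjusted p = 0.0967). Zfp36l1, an mRNA decay factor, rose by 0.92 ± 0.23 in knockout spleens and differed by -0.14 ± 0.23 in wild-type spleens (adjusted p = 0.842). Its geometric means were 1560 and 1410 in wild-type control and LPS arrays and 922 and 1750 in knockout arrays. Zfp36 (tristetraprolin), which destabilises Tnf mRNA, differed by 0.63 ± 0.48 in wild-type and 1.52 ± 0.48 in knockout spleens (adjusted p = 0.58 and 0.0656), and by 1.08 ± 0.34 averaged (adjusted p = 0.0482). Over the 107 genes of these 7 lists none was called between genotypes by limma, in controls, after LPS, averaged or as an interaction (3, 17, 11 and 9 at an unadjusted p under 0.05, against 1.42%, 10.2%, 5.74% and 6.46% of all genes). Several of the list calls lay near the threshold: in wild-type spleens those of Cd70, Tnfrsf12a and Traf1 ended in 16, 16 and 17 of 29 alternatives, and in knockout spleens those of Tnfsf9, Cd27 and Tnfrsf17 in 13, 9 and 9. The calls of Tnfrsf9, Cd40, Tnfaip3, Tnip1, Ccl2, Sod2, Icam1 and Mapk14 stood in both genotypes under all 29.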

How the data were processed

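Spleen RNA (5 µg per array) of 12 mice was hybridised to MOE430A 2.0 arrays. Per the series' design text, the authors made the deposited table by RMA, as implemented in affy for R (version not given in the sources used here). The deposited values are intensities on a linear scale, whole numbers from 6 to 15228, with array medians of 47 to 63. RMA usually gives log2 values of 1 shared distribution, so a later conversion or rescaling that the sources do not describe may bear on every intensity and fold; the precision is set by how far a probe set stands above background and by 3 arrays a group, and 30.84% of values were under 20.

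Groups and replicate numbers came from the sample titles; nothing beyond 1 mouse per array describes the replicates. Intensities were log2-transformed, 64 control probe sets were left out, and 4 group means were fitted to the 22626 others with limma 3.58.1 in R 4.3.3 (lmFit, eBayes; 8 residual and 2.722 prior degrees of freedom). The 7 contrasts were tested two-sided with Benjamini-Hochberg adjustment at 0.05. The script was tested on simulated data. The probe set with the highest mean stood for a gene (no _x_at set where another existed); 20380 sets named 1 gene, 691 several and 1555 none.

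Named genes were the 6 members, up to 4 called genes of each list by smallest p, up to 2 uncalled ones, and the 5 genes most correlated with a member. Any other was named after its values were seen. Members, lists and motifs were chosen with earlier results of these data known. Besides the 7 pathway lists there were 12 marker lists, used as array means and gene by gene. Promoters and gene order are RefSeq's (GRCm38.p6). Alternatives were other normalisations, floors, filters, fits, covariates and left-out arrays.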

Additional observations from a re-analysis of the deposited data

How the results depend on the processing

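Each contrast was refitted under up to 30 alternatives, 12 of which left out 1 array; the lung, liver, erythroid and lymphocyte covariates were chosen after seeing the data. The number of the 6 genes called in the wild-type LPS response was 2 with the other Tnfrsf1b probe set. In the knockout response it was 0 with values under 32 set to 32 or with only the groups compared, and 2 with cyclic loess, array weights, or the pancreas or liver list as a covariate; it was 0 to 2 without 1 array. In the averaged response it was 5 with cyclic loess and 1 without wild-type controls 2 and 3. After LPS, array weights called 1 gene between genotypes, Tnf, where they called 2063 probe sets in all against 72; elsewhere between genotypes none of the 6 was called. The 18 correlations between arrays with the same replicate number ran from -0.584 to 0.629 (median 0.064). The 36 between arrays with different numbers ran from -0.626 to 0.616 (median 0.0163), so no pairing by number was seen. The replicate block changed no call (Tnfrsf1b in knockout spleens 1.92, adjusted p = 0.0364).

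Reversed values, of differences that were not called except the averaged response of Ltb, were as follows. With the B and T cell lists, Ltb was 0.54 in the wild-type and 0.14 in the averaged LPS response, and knockout minus wild-type in controls was 0.16 for Ltb and 0.070 for Tnfrsf1a. Array weights gave -0.075 for Ltbr in the knockout response, 0.028 for Tnfrsf1a and 0.029 for Tnfrsf1b between controls, and -0.031 (after LPS) and -0.058 (interaction) for Tnfrsf1a. The pancreas list gave Ltbr -0.10 in the knockout response. Without the pancreas-high arrays it was -0.11, and Ltb between controls 0.22. Without wild-type controls 2 and 3, Ltb and Tnfrsf1a between controls were 0.22 and 0.14, and the Tnfrsf1a interaction -0.021. The other Tnfrsf1b set gave 0.036 between controls. The lung list gave Ltbr -0.036 between controls and Lta -0.11 after LPS, and the liver list gave Ltbr -0.089 between controls. Leaving out 1 array, Ltbr in the knockout response ran from -0.17 to 0.49. Between controls, Lta ran from -0.73 to 0.17, Ltb from -0.41 to 0.36, Tnfrsf1a from -0.20 to 0.16, Tnfrsf1b from -1.04 to 0.16 and Ltbr from -0.13 to 0.54. After LPS, Tnfrsf1a ran from -0.15 to 0.32 and Ltbr from -0.49 to 0.079, and the Tnfrsf1a interaction from -0.11 to 0.36. The causes were not tested.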

Other observations

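The neighbours of the 6 genes were read from RefSeq gene order, 4 protein-coding genes on each side. Of 17 neighbours measured, 1 rose and 3 fell in wild-type spleens (background 8.09% of all genes called). In knockout spleens 0 rose and 4 fell (background 15.2%). Next to Ltb, Lst1, a gene of leukocytes, fell by 1.56 in wild-type (± 0.38, adjusted p = 0.0333) and by 1.97 in knockout spleens (adjusted p = 0.00695), and Aif1, a macrophage gene, fell by 1.98 (± 0.28, adjusted p = 0.0022) and 1.08 (adjusted p = 0.0273). On the other flank, beyond Lta, Nfkbil1 differed by 0.27 ± 0.36 and -0.28 (adjusted p = 0.798 and 0.717). Tnf, between Ltb and Lta, was thus the one gene of that stretch, from Aif1 to Nfkbil1, that was called higher after LPS in wild-type spleens.

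Ltbr and Tnfrsf1a lie on chromosome 6 with Scnn1a between them. Near Ltbr, Tapbpl, a gene of antigen presentation, rose in wild-type spleens (1.60 ± 0.35, adjusted p = 0.022) and differed by 0.64 in knockout spleens (adjusted p = 0.302). It is also among the 5 genes most correlated with Tnf. Vamp1, a vesicle fusion gene, fell by 1.60 ± 0.36 and 1.76 (adjusted p = 0.0252 and 0.0101). Tnfrsf8, next to Tnfrsf1b on chromosome 4, differed by 0.32 ± 0.17 in wild-type spleens (adjusted p = 0.381).

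Other marker lists, in the LPS response averaged over genotypes, gave the setting in which the 6 genes were read. Of all genes 22.9% were called in that response, in either direction. Of 12 stromal genes 5 fell, among them Tcf21 (-3.80 ± 0.20) and Tlx1 (-1.97 ± 0.21), transcription factors of splenic stroma. Of 14 monocyte and macrophage genes 2 rose and 8 fell: Cd14, the LPS coreceptor, rose by 3.14 ± 0.17, and Cd5l, a gene of resident macrophages, fell by 2.08 ± 0.16. Of 9 dendritic cell genes 5 rose, among them Ly75 (1.75 ± 0.19), and 2 fell. Of 9 NK cell genes 1 rose and 3 fell, of 9 neutrophil genes 1 rose, and of 11 endothelial genes 2 rose and 3 fell. Of 12 pancreas genes 1 fell, of 11 genes on the liver list 1 rose, and no erythroid or lung gene passed. The liver list held Trh, a hormone gene that read 13 to 23 and is not a liver marker. The Hba-a1 set on the erythroid list read only 9 to 12.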
